A study of Mus musculus with 5 samples.

Results

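In primary mouse astrocyte cultures, 9 genes of nitrogen handling were examined by name: Ass1, Asl, Arg1, Arg2, Oat, Slc25a15, Gatm, Glul and Glud1. Of these, 8 had a row among the 18783 genes of the authors' deposited table, and Arg2, the mitochondrial arginase, had none and was not analysed here. The members were taken by gene symbol, from a list chosen with earlier results of these data known. The cultures came from newborn C57BL/6 pups (P0 to P1) and were harvested on day 12 in vitro. Control cultures were naive (2 libraries), Aβ cultures received 1 µM amyloid-β peptide for 5 days from day 7 in vitro (2 libraries), and Aβ+DFMO cultures received 1 µM Aβ together with 50 µM DFMO over the same 5 days (1 library). All groups shared strain, age, medium and harvest day, and no group received DFMO without Aβ. Whether the libraries of a group are separate cultures is not labelled, so p-values rest on a spread between libraries that may be technical. The Aβ+DFMO group, with 1 library, has no spread of its own.

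The urea cycle turns ammonia into urea and runs as a whole in the liver, while brain cells use only some of its steps. Arginase releases ornithine from arginine, and ornithine is the substrate of ornithine decarboxylase, the polyamine enzyme that DFMO (difluoromethylornithine) inactivates. Ornithine can instead be moved into mitochondria and turned towards glutamate and proline. In the brain, astrocytes are the main site of glutamine synthetase, which joins ammonia to glutamate.

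Values per gene were group means of a normalized signal, with no value per library, so no spread between libraries can be shown for a level. The Control and Aβ libraries had between 46886111 and 105544237 reads and the Aβ+DFMO library had 4825677. In that library the worth of 1 read was estimated at 7.45 normalized units, because 80.3% of the 7270 lowest genes (under 27 reads) lay within 0.05 of a whole number of such units. The astrocyte label was checked against 8 markers, all of which were measured. Their Control means ran from 457 (S100b) to 57209 (Gfap) per the authors' deposited table. Markers of microglia and macrophages (13 of 13 listed) and of the oligodendrocyte lineage (10 of 10) were also measured in every group. Neuron markers (6 of 7, Rbfox3 without a row) and fibroblast markers (5 of 5) were measured too. Those of neurons ran from Snap25 at 50.7 to Map2 at 10827 in Control, with Syt1 at 83.9 and Stmn2 at 6792. Those of fibroblasts ran from Lum at 18.2 to Col1a1 at 7986 in Control, per the authors' deposited table. Of 4 endothelial markers Pecam1 and Cldn5 had no row, and Cdh5 and Kdr stood at 17.9 and 160 in Control per the authors' deposited table.

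Transcript base composition is shown first, because it bears on how every Aβ+DFMO ratio reads. Across 11660 genes with at least 200 units in Aβ, the log2 ratio of Aβ+DFMO against Aβ fell with the GC content of the transcript (Spearman's rho −0.71 across genes, which share the same libraries and are not replicates; 0.12 for Aβ against Control). The members ran from 43.2% GC in Gatm to 55.5% in Asl, with Glul at 49.2%. A stretch of 60 coding bases is printed for Gatm and Glul, the first that holds the whole transcript's own share of G and C, with G and C in capitals.
Gatm: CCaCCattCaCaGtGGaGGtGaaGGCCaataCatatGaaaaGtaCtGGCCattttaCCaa
Glul: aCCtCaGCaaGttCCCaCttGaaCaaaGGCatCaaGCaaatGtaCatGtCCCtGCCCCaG
These stretches hold 26 and 30 G or C letters and start at coding bases 265 and 7, in the GENCODE M21 transcripts Gatm-201 and Glul-201. A fitted trend put the log2 ratio of Aβ+DFMO against Aβ at 0.22 for a transcript of the GC content of Gatm, at 0.00315 for that of Glul and at −0.31 for that of Asl. The deposited ratio of Glul was therefore almost the same with the trend subtracted, whereas those of Gatm and Asl were not.

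**Figure D1:**
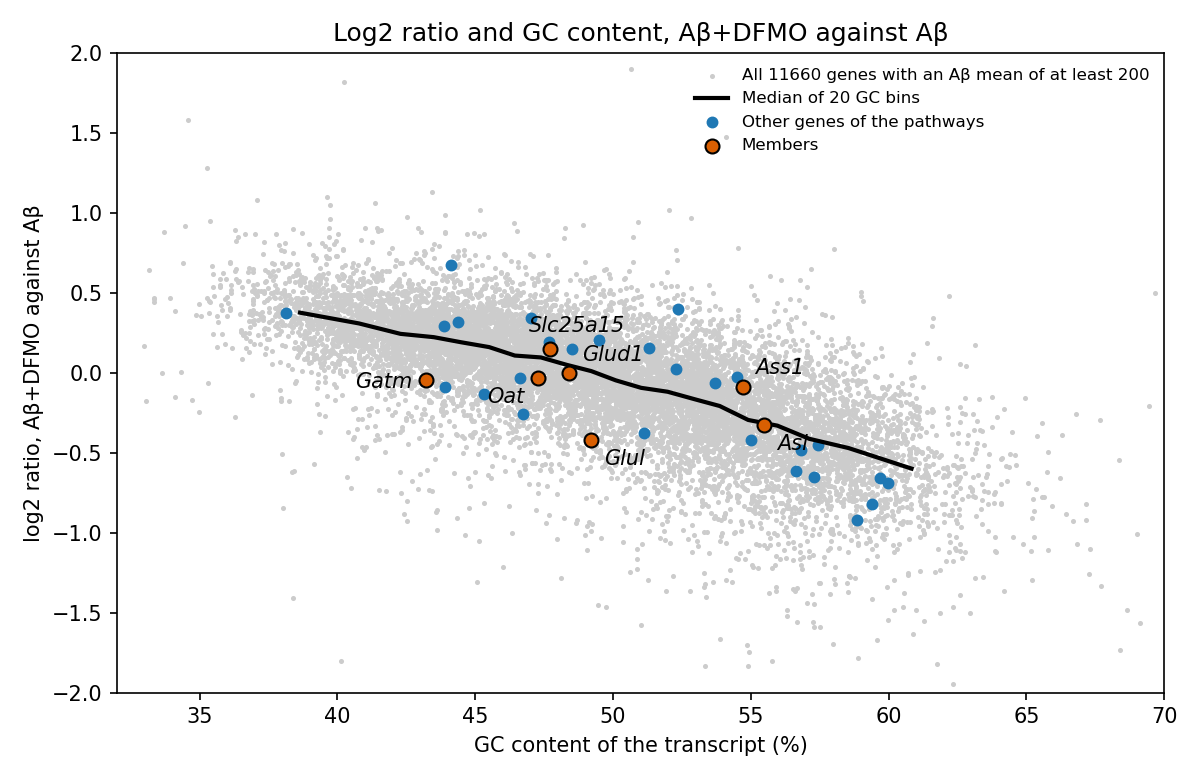
Log2 ratio of Aβ+DFMO against Aβ (vertical axis) and GC content of the transcript in percent (horizontal axis) for 11660 genes (grey; 10 lie outside the axes), with the median of 20 GC bins (black line), other genes of the pathways (blue) and 7 members (orange; Arg1 has under 200 units in Aβ). Glul lies at −0.42 where the trend is near 0, while Asl lies on the line and Gatm below it.

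The levels of the members spanned more than 3 orders of size. Per kilobase of transcript, the Aβ group means in normalized units were 9456 for Glul, 5756 for Oat, 4485 for Glud1, 1029 for Ass1, 463 for Gatm, 221 for Asl, 196 for Slc25a15 and 5.45 for Arg1. The order was the same in Control (9688, 5865, 4486, 888, 606, 217, 197 and 6.91). In Aβ+DFMO it was the same except that Slc25a15, at 217, lay above Asl, at 176. No error is known for a level, so neighbours in this order, such as Asl and Slc25a15 at a ratio of 1.13 in Aβ, cannot be tested. Before division by length, the Glul mean exceeded that of 99.5% of all genes in Aβ, the Oat mean that of 98.5% and the Arg1 mean lay among the lowest of the table.

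**Figure D2:**
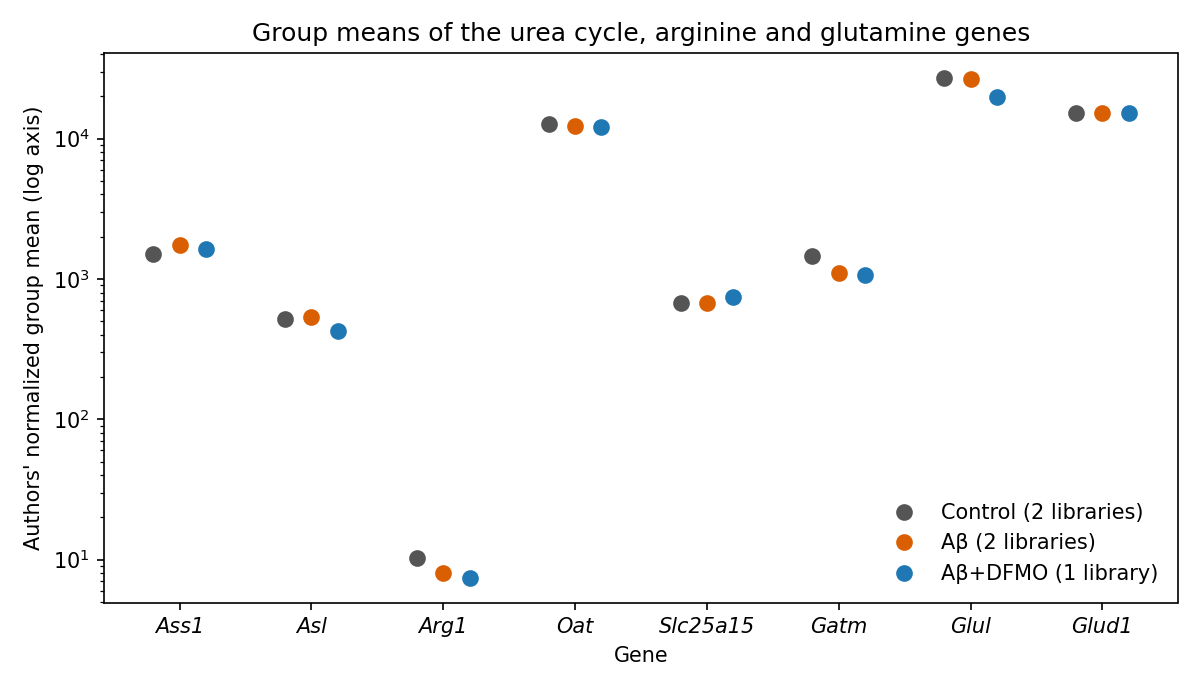
Authors' normalized group mean (log axis) of the 8 measured members in Control (grey), Aβ (orange) and Aβ+DFMO (blue); each point is 1 group mean and has no error. The Aβ+DFMO point of Glul lies at 19749 against 26402 in Aβ, and the Control point of Gatm at 1447 against 1106; the points of Arg1 and the Aβ+DFMO point of Asl are also apart, at few reads.

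Aβ was compared with Control to see how the peptide alone alters the cultures. Among the measured members 0 of 8 passed an adjusted p under 0.05 in the authors' DESeq2 test, where 0.287% of all genes passed (0.218% at an adjusted p under 0.01 and 0.282% with the GC trend subtracted), and 1 of 8, Gatm, had an unadjusted p under 0.05, where 1.72% of all genes did. The median log2 ratio of the members was −0.02 per the authors' deposited table, beside 0.00238 over all genes, and their median absolute log2 ratio was 0.03, beside 0.07. A standard error was derived from each log2 ratio and its p by assuming a Wald test and is called the derived standard error. The 8 members are described below in the order of their roles.

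Of the cytosolic urea cycle enzymes, Ass1, argininosuccinate synthase, joins citrulline to aspartate; the gene spans 31470207 to 31520672 of chromosome 2 (GRCm38, plus strand). The Ass1 mean was 1505 in Control and 1745 in Aβ per the authors' deposited table, which makes a log2 ratio of 0.21 (derived standard error 0.259). Its 95% interval ran from −0.29 to 0.72, so the direction of its response to Aβ was not resolved. That derived error stood above those of 98.8% of the 500 genes nearest to Ass1 in Aβ mean, whose median was 0.103.

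Asl, argininosuccinate lyase, splits argininosuccinate into arginine and fumarate, and its gene spans 130011258 to 130029247 of chromosome 5 (minus strand). Its mean was 523 in Control and 533 in Aβ per the authors' deposited table (log2 ratio 0.03, derived standard error 0.154). The derived error of Asl was close to the median of its 500 nearest genes, 0.155. Per kilobase, Ass1 was 4.10 times Asl in Control and 4.66 times in Aβ.

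Arg1, the cytosolic arginase and also a marker of some macrophage states, was near the bottom of the table; it spans 24915221 to 24927484 of chromosome 10 (minus strand). Its mean was 10.2 in Control and 8.05 in Aβ per the authors' deposited table, with a 95% interval of the log2 ratio from −2.39 to 1.70. The width of that interval leaves its response to Aβ unmeasured.

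Of the mitochondrial steps, Oat, ornithine aminotransferase, turns ornithine towards glutamate and proline. The authors' deposited table gave it 12622 in Control against 12386 in Aβ, a log2 ratio of −0.03 with a 95% interval from −0.17 to 0.12. Slc25a15, which carries ornithine across the inner mitochondrial membrane, had means of 677 and 671 per the authors' deposited table (log2 ratio −0.01, interval −0.29 to 0.27). The interval of Oat was thus narrower than that of Slc25a15, and both include 0. Slc25a15 spans 22375551 to 22398597 of chromosome 8 and Oat 132557478 to 132576398 of chromosome 7, both on the minus strand. Oat lies within the annotated span of Fgfr2 on the same strand, and the sources used here do not say how reads of overlapping genes were counted.

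Gatm, glycine amidinotransferase, moves the amidino group of arginine to glycine, which yields ornithine and the precursor of creatine. The gene spans 122594467 to 122611303 of chromosome 2 (minus strand). Its mean was 1447 in Control and 1106 in Aβ, a log2 ratio of −0.39 (95% interval −0.62 to −0.16) per the authors' deposited table. The unadjusted p was 0.00107 and the adjusted p 0.248 per the authors' deposited table, so the difference did not pass over all genes. Gatm was 1 of the 324 genes with an unadjusted p under 0.05 in this comparison. Of 13 microglia and macrophage markers, 4 were lower and 1, Lyz2, was higher past the threshold in Aβ, where 0.287% of all genes passed. Their median log2 ratio was −0.38. Their summed mean was 52543 in Control and 53800 in Aβ, of which Lyz2 made up 25844 and 33225. Markers of the oligodendrocyte lineage summed to 47032 and 46413, with a median log2 ratio of −0.002. The part of either cell type in the Gatm value was not tested.

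Glul, glutamine synthetase, and Glud1, glutamate dehydrogenase, which interconverts glutamate and 2-oxoglutarate, were the most precisely measured members together with Oat. The Glul mean was 27050 in Control and 26402 in Aβ per the authors' deposited table, or a log2 ratio of −0.03 (95% interval −0.17 to 0.10). The Glud1 mean was 15206 in Control and 15203 in Aβ per the authors' deposited table (log2 ratio −0.00027, interval −0.15 to 0.15). Per kilobase, Glul was 2.16 times Glud1 in Control and 2.11 times in Aβ. Glul spans 153899944 to 153909723 of chromosome 1 (GRCm38, plus strand), where Teddm2 on the opposite strand overlaps its 5′ end at an Aβ mean of 17.9, and Glud1 spans 34310727 to 34345265 of chromosome 14 (plus strand).

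Aβ+DFMO was compared with Aβ to see how the inhibitor alters cultures given the peptide over the same days. Among the measured members 1 of 8 passed an adjusted p under 0.05 per the authors' deposited table, Glul, which fell, where 9.18% of all genes passed (4.72% at an adjusted p under 0.01) and 5.18% passed downwards. With the GC trend subtracted, the count was again 1 of 8, the same gene, where 1.56% of all genes with a GC value passed and 0.731% passed downwards. The median log2 ratio of the members was −0.07 per the authors' deposited table, beside 0.00796 over all genes, and the median absolute log2 ratio was 0.10, beside 0.32. Both comparisons use the same Aβ libraries. The Aβ+DFMO group is a single library, which the authors' fit takes to vary like those of the other groups.

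Glul fell to a mean of 19749 in Aβ+DFMO from 26402 in Aβ, a log2 ratio of −0.42 (derived standard error 0.0912, 95% interval −0.60 to −0.24, adjusted p = 0.000303) per the authors' deposited table. Subtracting the GC trend left the log2 ratio at −0.42 (adjusted p = 0.000744). The Aβ+DFMO value rested on an estimated 2650 reads, whose exact Poisson 95% interval spans 19004 to 20516 normalized units and covers counting error only. It was below both other group means, Control at 27050 included, and the log2 ratio of Aβ+DFMO to Control, which was not tested, was −0.45.

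Summed markers of astrocytes, the oligodendrocyte lineage, and microglia and macrophages were lower in the same library. The 8 astrocyte markers summed to 152671 in Aβ and 120177 in Aβ+DFMO, a log2 ratio of −0.35, and 3 of them fell past the threshold per the authors' deposited table, Gfap (−0.47), Aldh1l1 (−0.68) and Aldoc (−0.99). With the GC trend subtracted 3 were lower, Aldoc, Aldh1l1 and Slc1a3, while Gfap no longer passed. Of the 10 oligodendrocyte lineage markers 8 fell, 3 with the GC trend subtracted, and their sum went from 46413 to 25458. Microglia and macrophage markers summed to 53800 and 39402, with 4 of 13 lower, 2 with the GC trend subtracted. Beside these counts, 5.18% of all genes passed downwards as deposited and 0.731% with the GC trend subtracted. The log2 ratio of Glul was 0.07 below that of the astrocyte sum and 0.45 above that of the oligodendrocyte sum. No marker sum had the GC trend subtracted, whereas the trend at the GC content of Glul was near 0. Subtracting it moved single astrocyte markers either way, Gfap from −0.47 to −0.17 and Aqp4 from 0.04 to −0.24. The median log2 ratio of the markers was −0.36 for astrocytes, −1.05 for the oligodendrocyte lineage and −0.48 for microglia and macrophages. It was also negative for neurons (−0.22), fibroblasts (−0.13) and endothelium (−1.06), though the sum of the neuron list was higher. The 6 neuron markers summed to 21339 in Aβ and 24071 in Aβ+DFMO (log2 ratio 0.17), with Stmn2 higher and Tubb3 and Gap43 lower past the threshold per the authors' deposited table. Of these, Tubb3 no longer passed with the GC trend subtracted. The 5 fibroblast markers summed to 15397 and 14487 (−0.09), and none passed in the authors' DESeq2 test, while Col1a2 was higher with the GC trend subtracted. The 2 endothelial markers summed to 199.8 and 119 (−0.74) and neither passed. The log2 ratio of Glul was 0.59 below that of the neuron sum and 0.33 below that of the fibroblast sum. Fewer cells of a type and less RNA per cell cannot be told apart in these bulk libraries, and the part of cell makeup in the Glul value was not tested.

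Glud1, the partner of Glul in ammonia and glutamate handling, had nearly the same mean in both groups. Its mean was 15168 in Aβ+DFMO and 15203 in Aβ per the authors' deposited table (log2 ratio −0.00334, derived standard error 0.0968, 95% interval −0.19 to 0.19). With the GC trend subtracted the value was −0.04. Per kilobase, Glul was 1.58 times Glud1 in Aβ+DFMO, beside 2.11 times in Aβ. The difference between these genes was not tested.

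Among the mitochondrial ornithine genes, Oat had a mean of 12088 in Aβ+DFMO per the authors' deposited table, which is −0.04 against Aβ on the log2 scale, with a 95% interval from −0.22 to 0.15. Slc25a15 was the single member with a higher mean in Aβ+DFMO, at 745 (log2 ratio 0.15, interval −0.29 to 0.59, adjusted p = 0.802) per the authors' deposited table. Its value rested on an estimated 100 reads, with a counting interval of 606 to 906 normalized units that includes the Aβ mean of 671. Neither gene differed past the threshold, with the GC trend subtracted (−0.12 and 0.08) or without.

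After Glul, the cytosolic urea cycle gene Asl had the lowest log2 ratio of the measured members. Its mean was 425 in Aβ+DFMO and 533 in Aβ per the authors' deposited table (log2 ratio −0.33, derived standard error 0.264, adjusted p = 0.548). The trend at its GC content was −0.31, and the value with the trend subtracted was −0.02. It rested on an estimated 57 reads, whose counting interval of 322 to 550 units includes the Aβ mean.

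Ass1 had a mean of 1643 in Aβ+DFMO per the authors' deposited table, which is −0.09 against Aβ on the log2 scale, with a 95% interval from −0.74 to 0.56. Its sign turned when the GC trend was subtracted, to 0.18 (adjusted p = 0.977). As in the first comparison its derived standard error, 0.330, was above that of 98.8% of the 500 genes nearest in mean. The 2 comparisons share the Aβ libraries and a fit by the authors, so this is not a second measurement of its spread.

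Arg1 stood at 7.45 normalized units in Aβ+DFMO per the authors' deposited table, the worth of an estimated 1 read. The Poisson 95% interval of that read is 0.189 to 41.5 units, so Arg1 was not measurable at this depth. Neither arginase gene therefore gave a usable ratio.

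Gatm did not pass when DFMO was added, with a mean of 1073 against 1106 in Aβ per the authors' deposited table (log2 ratio −0.04, 95% interval −0.41 to 0.32). With the GC trend subtracted the log2 ratio was −0.27 (adjusted p = 0.803). The mean of Aβ+DFMO lay below that of Control at a log2 ratio of −0.43, which was not tested. For 7 of the 8 members the Aβ mean lay inside the counting interval of the Aβ+DFMO value, and Glul was the exception.

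**Figure D3:**
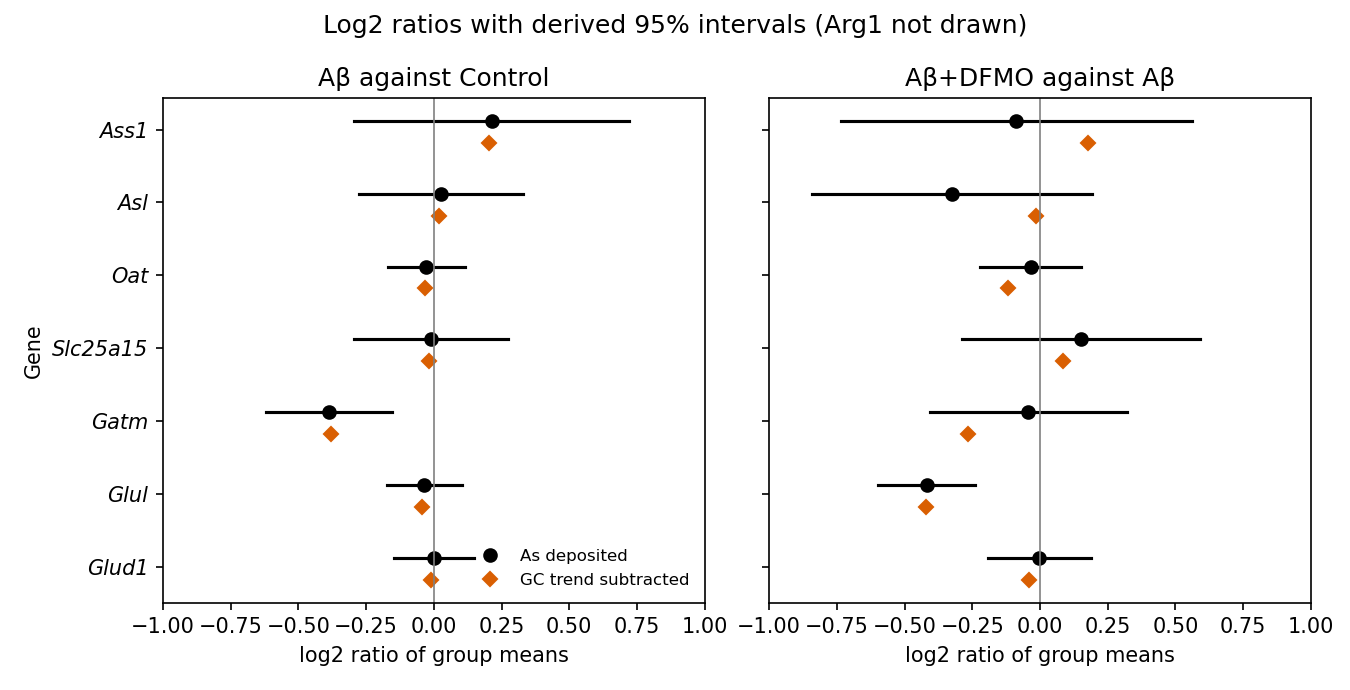
Log2 ratio of group means for 7 members, Aβ against Control (left) and Aβ+DFMO against Aβ (right); black points are the deposited ratios with derived 95% intervals, orange diamonds the ratios with the GC trend subtracted. Glul at −0.42 on the right has an interval below 0 and does not move with the trend, and Gatm at −0.39 on the left has an interval below 0 without passing over all genes.

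The genes whose pair of log2 ratios was nearest to that of Glul, among 10559 genes with a mean of at least 200 in every group, were Mapk7 (a kinase, log2 ratios −0.03 and −0.42) and Klhdc3 (−0.04 and −0.41) per the authors' deposited table. Likeness was the Euclidean distance over the 2 log2 ratios. Neither passed in Aβ+DFMO against Aβ per the authors' deposited table (adjusted p = 0.236 and 0.191), at Aβ means of 915 and 1083.

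The neighbouring genes of arginine, ornithine, proline, creatine and glutamine metabolism gave the context. Of 44 listed genes 37 had a row, Pycr3 under its older symbol Pycrl. In Aβ against Control 0 of the 37 passed in the authors' DESeq2 test, 1 had an unadjusted p under 0.05, the glutamate transporter gene Slc1a2 (−0.22 per the authors' deposited table), and the median log2 ratio was 0.04. In Aβ+DFMO against Aβ 3 rose and 6 fell per the authors' deposited table, 24.3% of the list where 9.18% of all genes passed, with a median of −0.26. With the GC trend subtracted 1 was higher and 1 lower, where 1.56% of all genes with a GC value passed and 0.731% passed downwards. The median was then −0.04.

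Among the creatine genes, Ckb and Slc6a8 fell in Aβ+DFMO as deposited. Ckb, brain creatine kinase, had means of 87862 in Control, 88290 in Aβ and 54801 in Aβ+DFMO per the authors' deposited table (log2 ratio −0.69 against Aβ). Slc6a8, the creatine transporter gene, fell by 0.48 on the log2 scale per the authors' deposited table, from 3764 in Aβ to 2690. Neither passed with the GC trend subtracted, at −0.15 and −0.10. Gamt, which makes creatine from the product of Gatm, had means of 181 in Aβ and 67.1 in Aβ+DFMO per the authors' deposited table, the latter an estimated 9 reads (adjusted p = 0.0941). Ckmt1, a mitochondrial creatine kinase gene, had 60.2 and 82.0 per the authors' deposited table (log2 ratio 0.45, 0.72 with the GC trend subtracted), from an estimated 11 reads, and did not pass.

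Of the proline genes, Aldh4a1, which oxidises the proline breakdown intermediate to glutamate, fell by 0.62 on the log2 scale per the authors' deposited table. It lost the call with the GC trend subtracted (−0.24). Aldh18a1, which starts proline and ornithine synthesis from glutamate, had a log2 ratio of −0.06 per the authors' deposited table and did not pass.

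Arginine and ornithine were represented by Ddah2, an enzyme that breaks down methylated arginine, and Odc1, the target of DFMO. Ddah2 fell by 0.82 per the authors' deposited table, and its value with the GC trend subtracted was −0.31 (adjusted p = 0.731). Odc1 had means of 9293 in Aβ and 12235 in Aβ+DFMO per the authors' deposited table (log2 ratio 0.40), and with the GC trend subtracted it was the single gene of this list to pass upwards (0.54). Ddah1, the paralog of Ddah2 at a mean of 41235 in Aβ per the authors' deposited table, did not pass (log2 ratio 0.20). Of the arginine transporter genes, Slc7a1 (0.16) and Slc7a2 (−0.09) did not pass per the authors' deposited table either.

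On the glutamine side, Ppat, which uses glutamine in purine synthesis, rose by 0.67 on the log2 scale per the authors' deposited table and Slc38a3, a glutamine transporter gene, fell by 0.42. They were at 0.48 and −0.14 with the trend subtracted and no longer passed. Slc1a3, a glutamate transporter gene of astrocytes, did not pass as deposited (−0.26, adjusted p = 0.0629 per the authors' deposited table) and was lower with the GC trend subtracted (−0.36, adjusted p = 0.0125).

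**Figure D4:**
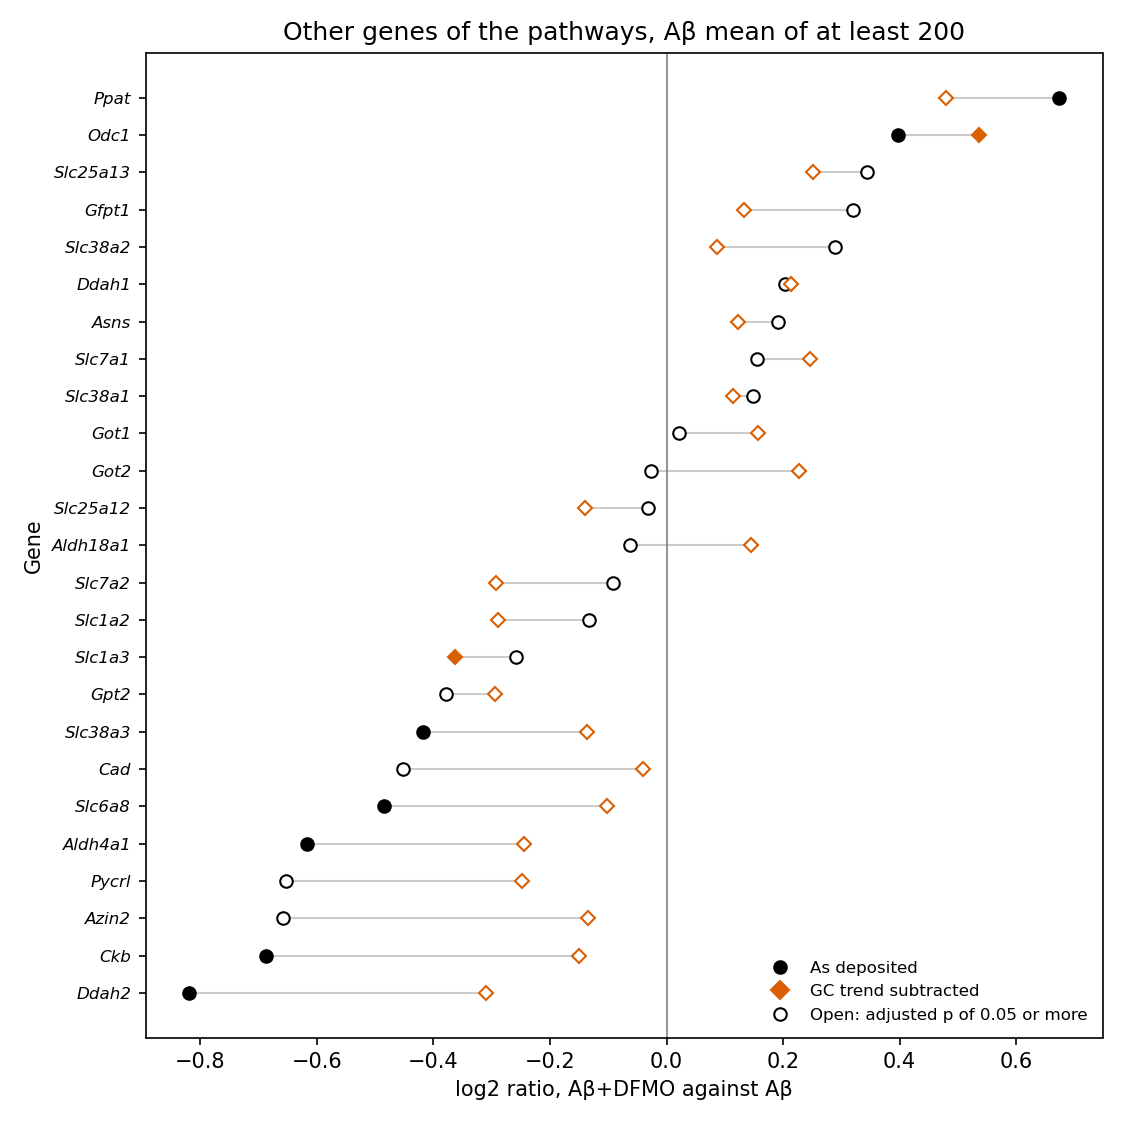
Log2 ratio of Aβ+DFMO against Aβ for 25 listed pathway genes with at least 200 units in Aβ, as deposited (circles) and with the GC trend subtracted (diamonds); filled symbols have an adjusted p under 0.05. Of the 7 filled circles only Odc1 keeps a filled diamond, and Slc1a3 gains one.

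The authors' deposited pathway table gave gene set means that include these pathways. Its set for arginine biosynthesis (14 genes) had means of 3888 in Control, 3864 in Aβ and 3381 in Aβ+DFMO, and its set for arginine and proline metabolism (41 genes) had 3999, 4022 and 3240. Per the authors' deposited table the ratio of Aβ+DFMO to Aβ was 0.875 and 0.806 for these sets. That of Aβ to Control was 0.994 and 1.01. For its set of alanine, aspartate and glutamate metabolism (33 genes) the same ratios were 0.905 and 1.003. Of all sets given there, 14.5%, 3.72% and 25.2% had a lower ratio of Aβ+DFMO to Aβ than these sets, in that order. Which genes each set held was not given there, and no correction for GC content was made to these means. Whether single abundant genes such as Glul or Ckb weighed on these ratios was not tested.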

How the data were processed

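Polyadenylated RNA of 5 libraries was sequenced as read pairs, per the labels' protocols. The submitters' processing notes name STAR 2.7.3a, Partek, DESeq2, FastQC and the builds mm10 and GRCm39 without a role; the sources used here do not give how reads were counted and filtered. Per the file headers, the authors deposited least-squares group means of a normalized signal, log2 ratios, p-values and adjusted p-values for Aβ against Control and Aβ+DFMO against Aβ, ratios of gene set means, and the reads of each library. The deposited log2 ratios were checked to be ratios of the means, and the adjusted p-values to follow from a Benjamini-Hochberg adjustment over 18783 genes. The authors' test was not re-run, since no counts per gene and library were used. Derived standard errors are the log2 ratio divided by the normal deviate of its p. As an alternative, a lowess trend (statsmodels 0.14.6, fraction 0.3) of the log2 ratio on GC content of the longest coding transcript (GENCODE M21, GRCm38; 98.3% of genes) was subtracted and p recomputed. The code was tested on simulated data with changes planted in abundant genes only and noise drawn from the derived standard errors. That test does not bear on calls lost in less abundant genes or on whether those errors are right. The members, lists and alternatives were chosen with earlier results of these data known. Named were all members, every listed pathway gene past an adjusted p of 0.05, further genes of the list chosen after their values were seen, and the 2 genes nearest to each called member; some listed genes are counted but not reported by name here. Other alternatives were pseudocounts of 10 and 50, a threshold of 0.01, adjustment over genes with at least 200 units in Aβ, and centring on the median.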

Additional observations from a re-analysis of the deposited data

How the results depend on the processing

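The number of members past the threshold stayed at 0 of 8 for Aβ against Control and at 1 of 8 for Aβ+DFMO against Aβ under an adjusted p of 0.01, adjustment over genes with at least 200 units in Aβ, centring on the median and removal of the GC trend. The count of other pathway genes in Aβ+DFMO against Aβ went from 9 to 5 at an adjusted p under 0.01 and to 2 with the GC trend subtracted; fewer calls follow from the stricter threshold by construction. Of 94 values of single members under an alternative, 92 kept their direction and their side of the threshold or, for pseudocounts, moved by less than the derived standard error. The log2 ratio of Ass1 in Aβ+DFMO against Aβ turned to 0.18 with the GC trend subtracted, and that of Glud1 to 0.018 when log2 ratios were centred on −0.02, the median over genes with at least 200 units in Aβ; neither passed either way. No paired analysis was possible because the values per gene are group means, and leaving out each library in turn was not run for the same reason. The depth of the Aβ+DFMO library limits Arg1, Asl and Slc25a15.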
